A study of Rattus norvegicus with 4 samples.

Results

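The genes described here are 6 growth-related genes measured in rat liver after a cholestatic toxicant: the nucleotide kinases Dtymk and Guk1, the nuclear protein Ptma, the ribosomal protein Rpl6 and the growth regulators Myc and Ccnd1. They were found by gene symbol, as the spots annotated with 1 of these symbols and no other gene. All 6 were on the array, on 7 of its 1648 gene spots and as 6 of 958 named genes. Myc had 2 spots and each of the others had 1.

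Male Sprague-Dawley rats weighing 250 to 300 g were given 75 mg/kg alpha-naphthylisothiocyanate (ANIT), a compound that injures bile duct epithelium, or olive oil, its solvent, into the peritoneum. Livers were taken 12 h later. Total RNA from 3 rats was mixed for each treatment and its poly(A) fraction labelled, so each treatment is 1 RNA pool and no array carries a single animal. Both pools were hybridised together on each of 4 spotted cDNA arrays, with ANIT RNA in Cy5 on arrays 1 and 3 and in Cy3 on arrays 2 and 4. The p-values therefore compare hybridisations of these pools, not animals, and in pooled tissue fewer cells of a type and less RNA per cell cannot be told apart.

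DNA synthesis needs all nucleotides as triphosphates, and Dtymk and Guk1 each add the second phosphate of that chain, to thymidine and guanine monophosphates. Myc is a transcription factor that binds E-box sequences together with Max and raises ribosome and nucleotide synthesis. Ccnd1, cyclin D1, activates the kinases that carry a cell out of the resting state into the cycle. Most hepatocytes of an adult liver are resting, and Myc and Ccnd1 are known as genes that rise after loss or injury of liver tissue.

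Each value is a log ratio of the pools on 1 spot of 1 array. Neither the base of the logarithm nor which treatment is the numerator is given in the sources used here, so sizes are in log units and sides are called positive and negative. A fold change follows only once a base is assumed: the value of Dtymk below would be 1.31-fold in base 2, 1.49-fold for natural logarithms and 2.49-fold in base 10. From each value the median over the gene spots of that array was subtracted. These medians were -0.77, 0.32, -0.72 and 0.30, so their sign followed the dye orientation. Arrays of one orientation correlated at r = 0.95 in both pairs and arrays of opposite orientation at -0.91 to -0.88, over 1648 gene spots that are not independent replicates. The fit therefore separated, for each feature, the mean of the arrays (the RNA pool contrast) from a dye component, which is the difference divided by 2 between arrays with ANIT in Cy5 and arrays with ANIT in Cy3. This takes every array to hold the same treatment as numerator, which no source states. Were the numerator always the same dye instead, the dye component would be the treatment comparison, and both are given for each member.

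The genes were chosen by their RNA pool contrasts, which were known beforehand, so every value and adjusted p of that contrast below, of single spots and other settings too, is a description and no test. By size, Dtymk ranked 9, Ptma 11, Guk1 32, Myc 44, Rpl6 63 and Ccnd1 122 among 1174 features. In limma with the dye component in the model, Dtymk, Guk1 and Rpl6 passed an adjusted p of 0.05 on the negative side and Ptma on the positive side. That is 4 of 6 members, beside 3.92% of all features (2.3% negative, 1.62% positive). Nothing is read from that count because it shaped the choice.

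**Figure D1:**
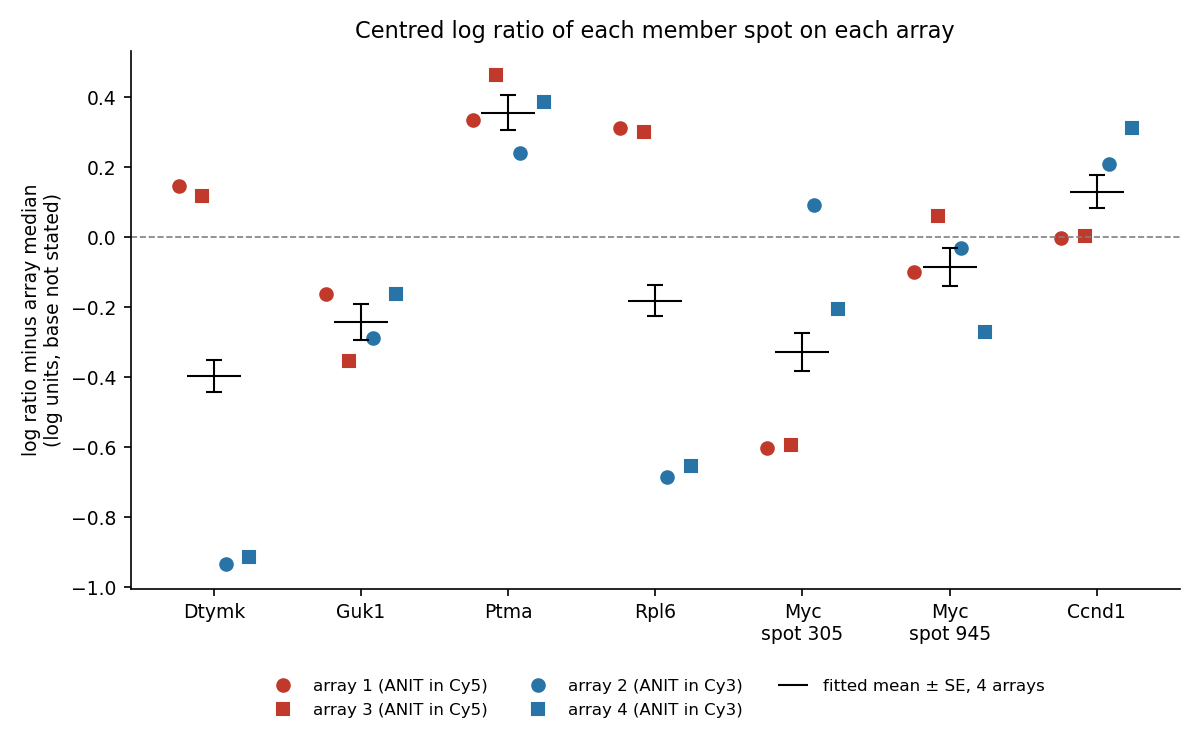
Log ratio of each member spot on each array after centring on the array's median gene spot (vertical axis, log units of unstated base). Red points are arrays with ANIT in Cy5, blue points arrays with ANIT in Cy3, and black bars the fitted mean ± SE over 4 arrays. Ptma is positive and Guk1 negative on all arrays, while Dtymk and Rpl6 split by dye orientation.

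The nucleotide kinases both had a negative mean, with very different array patterns. Dtymk, thymidylate kinase, stood at 0.15 on array 1, -0.93 on array 2, 0.12 on array 3 and -0.91 on array 4. The orientations did not overlap, and arrays of one orientation differed by at most 0.029. Its RNA pool contrast was -0.40 ± 0.039 (SE, n = 4 arrays), with a limma adjusted p of 0.00061.

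Guk1, guanylate kinase, stood at -0.16, -0.29, -0.35 and -0.16 on arrays 1 to 4. All arrays were negative, and the orientations overlapped. Its contrast was -0.24 ± 0.048 (limma adjusted p = 0.0265). Array 3 was the lowest, and without it Guk1 stood at -0.19 with an adjusted p of 0.153 in limma. Centring each print block of spots on its own median gave -0.22 and an adjusted p of 0.0623.

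Ptma encodes prothymosin alpha, a small and very acidic nuclear protein that binds histones and is abundant in dividing cells. Its spot stood at 0.34, 0.24, 0.46 and 0.39 on arrays 1 to 4. All arrays lay above the median gene spot, with overlap between the orientations. The contrast was 0.36 ± 0.046 (limma adjusted p = 0.0033). Leaving out 1 array moved it between 0.32 and 0.39, and it passed each time. Print block centring lowered it to 0.27, still past the threshold (limma adjusted p = 0.0151).

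The promoters of the members with the largest values on either side are shown because Myc binds E-boxes, and of the 2 one holds such a sequence. RefSeq promoter windows on GRCr8 were matched for 4 of the 6 genes (Dtymk, Guk1, Ptma and Rpl6), and the 250 bases before the start site were searched on both strands for the E-box CACGTG, the CCAAT box CCAAT and the GC box GGGCGG. Capitals mark matches on either strand. The Dtymk window is chr9:101771734-101771983, minus strand, and the Ptma window chr9:94623944-94624193, plus strand, both written 5′ to 3′.
Dtymk: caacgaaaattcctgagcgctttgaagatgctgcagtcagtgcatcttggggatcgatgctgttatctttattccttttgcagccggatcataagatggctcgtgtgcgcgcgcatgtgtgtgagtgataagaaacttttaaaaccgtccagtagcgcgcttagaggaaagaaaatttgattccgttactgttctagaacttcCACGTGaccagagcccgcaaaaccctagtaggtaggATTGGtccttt
Ptma: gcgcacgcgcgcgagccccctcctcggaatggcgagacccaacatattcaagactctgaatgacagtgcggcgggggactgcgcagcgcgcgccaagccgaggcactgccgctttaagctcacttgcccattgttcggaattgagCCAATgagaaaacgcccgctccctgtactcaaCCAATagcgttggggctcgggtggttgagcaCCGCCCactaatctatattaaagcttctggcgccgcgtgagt
Dtymk had 1 E-box, starting 47 bases before the start site, and 1 CCAAT box read on the opposite strand, 11 bases before it. Ptma had 2 CCAAT boxes, at 105 and 73 bases, a GC box on the opposite strand at 42 bases, and no E-box in this window. The Guk1 window had 1 GC box and that of Rpl6 had none of these sequences. Over all 33469 windows of this length, 5.59% held the E-box, 34% the CCAAT box and 30.5% the GC box, and over the 839 windows of genes on the array 7.51%, 34.6% and 57.6%. A match describes letters in the window and shows no binding.

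Rpl6, a protein of the large ribosomal subunit, had the pattern of Dtymk. It stood at 0.31, -0.68, 0.30 and -0.65 on arrays 1 to 4, positive with ANIT in Cy5 and negative with ANIT in Cy3. Its contrast was -0.18 ± 0.039 (limma adjusted p = 0.0389), the smallest of the members that passed. It did not pass without array 1, 2 or 3 (adjusted p = 0.122, 0.0712 and 0.175), with values between -0.18 and -0.17, nor with print blocks centred (-0.12, adjusted p = 0.198).

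The Myc spots differed from each other more than most pairs of spots for 1 gene. Spot 305 stood at -0.60, 0.092, -0.59 and -0.20 on arrays 1 to 4, and spot 945 at -0.10, -0.031, 0.062 and -0.27. The first was clearly negative with ANIT in Cy5 and the second near 0 there. Tested spot by spot in limma, spot 305 had a contrast of -0.33 ± 0.054 (adjusted p over all spots = 0.00364) and spot 945 one of -0.085 ± 0.054 (adjusted p = 0.428). In that fit 5.28% of the 1648 spots passed (2.61% positive, 2.67% negative). The gap of 0.24 between the spots compares with a median gap of 0.068 over the 261 genes with 2 spots, and 15 of these genes (5.75%) had a gap at least as wide. The files do not say which part of the transcript each cDNA covers.

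Averaged over its spots, Myc stood at -0.35, 0.031, -0.27 and -0.24 on arrays 1 to 4, with array 2 alone above 0. The contrast was -0.21 ± 0.052 and did not pass (limma adjusted p = 0.0715). Its size moved with single arrays: without array 2 it was -0.27 (limma adjusted p = 0.000596), and without array 4 it was -0.14 (adjusted p = 0.281). In both of these fits eBayes gave every member the same SE, 0.063, so these p-values also differ from the others in the variance model. Both spots moved between arrays 2 and 4, which share a dye orientation, by -0.30 at spot 305 and -0.24 at spot 945. The median absolute shift over gene spots between these arrays was 0.099, and 10.9% of gene spots shifted by at least as much as spot 945. Between arrays 1 and 3 the shifts were 0.0063 and 0.16. With equal spread on each array (adjusted p = 0.0489) and with a variance trend in eBayes (adjusted p = 0.0474) the averaged Myc value passed, at -0.21 in both.

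Ccnd1 stood at -0.0023, 0.21, 0.0052 and 0.31 on arrays 1 to 4. It was at the median gene spot with ANIT in Cy5 and above it with ANIT in Cy3, and the orientations did not overlap. The contrast was 0.13 ± 0.041 and did not pass (limma adjusted p = 0.149). It passed in none of the alternative settings under the same reading of the arrays.

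The dye component is a different contrast from the one that chose the genes. Of the 6 genes 3 passed for it in limma, beside 86.5% of all features (40.6% positive, 45.8% negative). Dtymk (0.53 ± 0.039, limma adjusted p = 2.09e-06) and Rpl6 (0.49 ± 0.039, adjusted p = 3.01e-06) were positive. Ccnd1 was negative (-0.13 ± 0.041, adjusted p = 0.015). Myc (-0.10 ± 0.052, adjusted p = 0.0914), Ptma (0.043 ± 0.046, adjusted p = 0.396) and Guk1 (-0.016 ± 0.048, adjusted p = 0.763) did not pass. The Myc spots again parted, with -0.27 ± 0.054 at spot 305 (adjusted p over all spots = 0.000409) and 0.066 ± 0.054 at spot 945 (adjusted p = 0.258). That gap, 0.34, is common among genes with 2 spots, since 41.4% had one at least as wide.

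Read as the treatment comparison, the dye component would thus put Dtymk and Rpl6 on the positive side, opposite to their RNA pool contrasts. Their values would be larger in size than those contrasts, and Guk1 and Ptma would be near 0. This holds for centred values only. Before centring, the dye component was 0.0030 for Dtymk and -0.037 for Rpl6, against -0.54 for Guk1 and -0.48 for Ptma. The spread of the RNA pool contrast also varied along the dye component. Its SD was 0.135 over the 379 features with a dye component above 0.25, where Dtymk and Rpl6 lie, and 38 of the 46 features that passed were there. It was 0.0836 over the 364 features within 0.25 of 0, where the other 4 members lie and 6 features passed. Over the 431 features below -0.25 it was 0.0664, and 2 passed. Whether this spread has a part in the members' values was not tested.

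**Figure D2:**
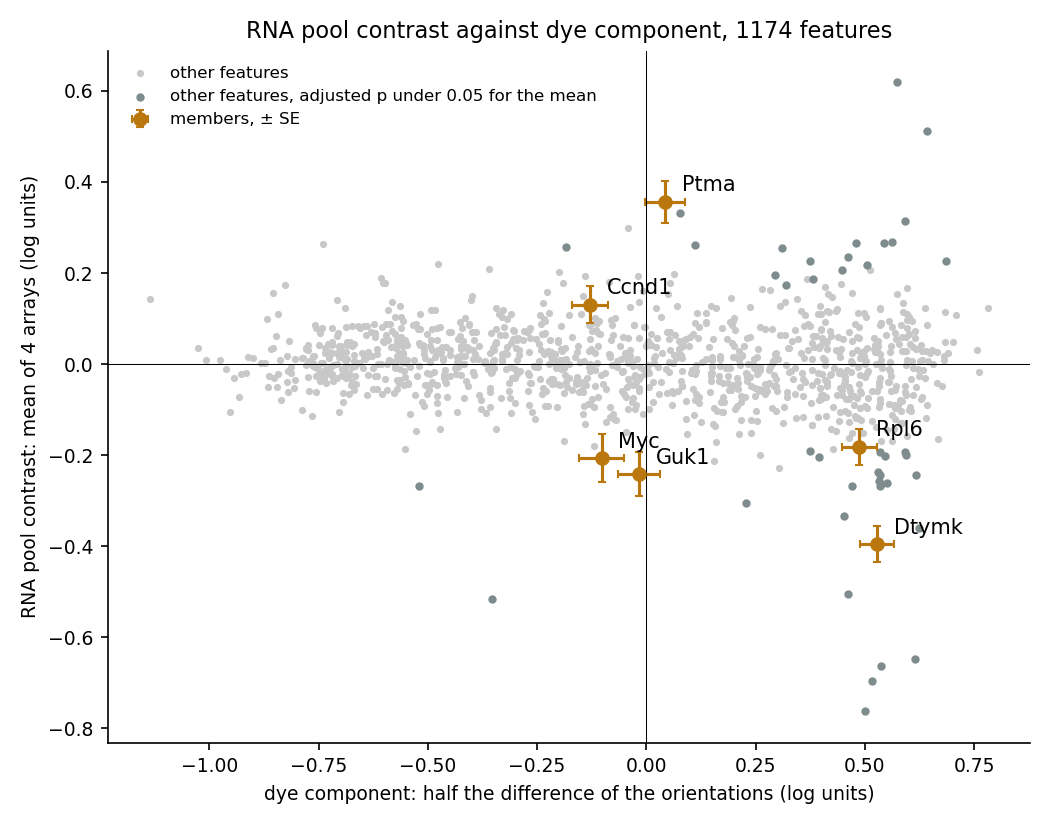
RNA pool contrast (vertical axis, mean of 4 arrays) against the dye component (horizontal axis, difference between the dye orientations divided by 2) for 1174 features, both in log units of unstated base. Orange points are the 6 members ± SE, dark grey points other features past an adjusted p of 0.05 for the contrast. Dtymk and Rpl6 lie to the right, at dye components of 0.53 and 0.49, and the other members lie within 0.25 of 0.

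Before centring the members looked different. As deposited, Dtymk read -0.62, -0.61, -0.60 and -0.61 on arrays 1 to 4, a range of 0.021, which was the second smallest of all 1648 gene spots, whose median range was 1.18. Rpl6 read -0.45, -0.36, -0.42 and -0.36, a range of 0.096 that ranked 52. Both were negative on every array and hardly changed with the dye. Guk1, by contrast, read -0.93, 0.033, -1.07 and 0.14, and Ptma read -0.43, 0.56, -0.25 and 0.69. Myc and Ccnd1 were also negative with ANIT in Cy5 and positive with ANIT in Cy3, so for these genes the uncentred sign followed the dye.

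Of the sets of control positions, 1 lay at the zero of the deposited scale and the others did not. The 48 spots at positions 89 to 91 of each of the 16 print blocks, none with a gene annotation, averaged -0.0025, 0.0026, -0.0037 and 0.0016 on arrays 1 to 4, with SDs of 0.049 to 0.059. Another 96 control spots, at positions 111 to 116, averaged -1.65, 1.20, -1.72 and 1.23. Control spots at positions 102 to 107 changed sign with the dye in the same direction. Those at positions 108 to 110 went the other way, at 0.0545, -0.265, 0.049 and -0.252. What was spotted at these positions is not given in the sources used here. Relative to the first set, Dtymk was negative by about 0.61 whichever dye carried ANIT RNA.

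On this scale the RNA pool contrast was -0.61 for Dtymk, -0.46 for Guk1, -0.40 for Rpl6, -0.42 for Myc, 0.14 for Ptma and -0.085 for Ccnd1. In limma 5 of these passed, all but Ccnd1 (adjusted p = 0.0633), but so did 90.4% of all features (90% negative), and the median gene spot lay at -0.21. Ptma was 1 of 4 features that passed on the positive side (0.341% of those tested). Ccnd1 changed side between the scales. The dye component on this scale was 0.0030 for Dtymk (adjusted p = 0.936) and -0.037 for Rpl6 (adjusted p = 0.346), neither past the threshold that 80.9% of features passed (2.81% positive, 78.1% negative). It was -0.54 for Guk1, -0.48 for Ptma, -0.63 for Myc and -0.65 for Ccnd1, which passed.

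**Figure D3:**
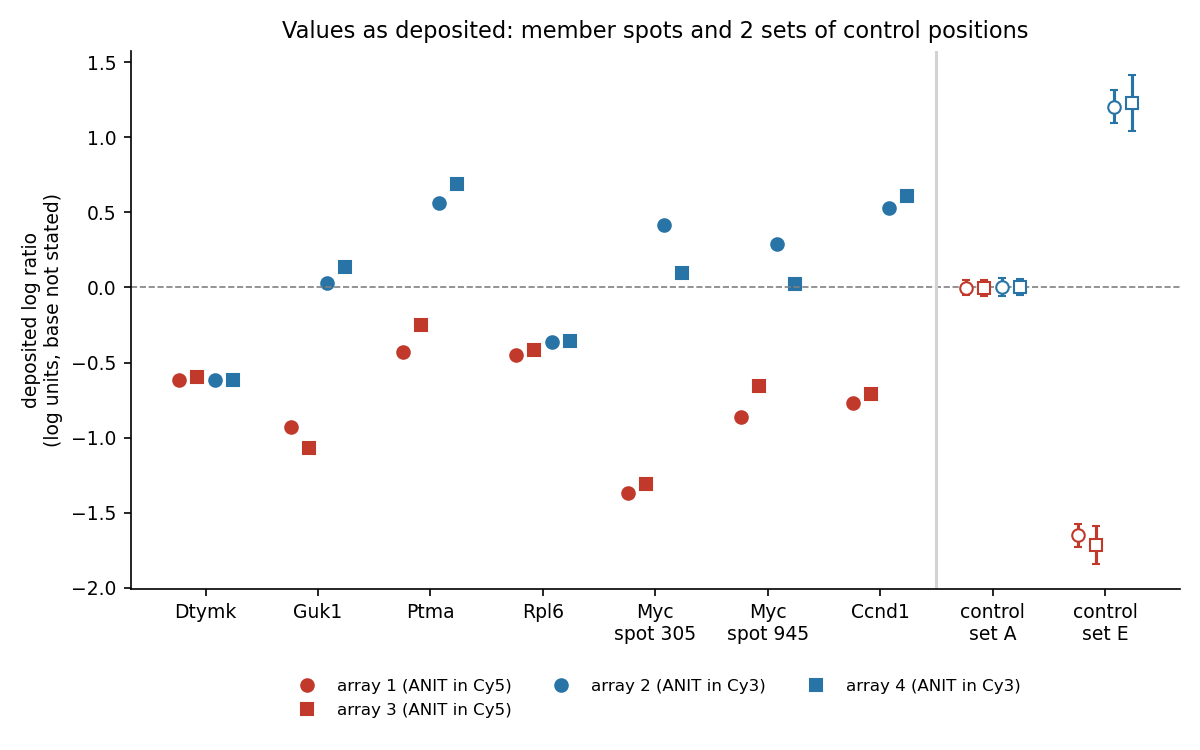
Log ratios as deposited (vertical axis, log units of unstated base) for each member spot on each array, and the mean ± SD of 2 sets of control spots (open symbols, 48 spots in set A and 96 in set E). Red marks arrays with ANIT in Cy5 and blue arrays with ANIT in Cy3. Dtymk holds one level on all arrays, Rpl6 nearly so, and control set A sits at 0.

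The other genes of these pathways came from 9 lists drawn up with earlier results known. In the RNA pool contrast they were mostly near the median gene spot. The lists held 94 measured genes, 88 of them outside the 6, and of these 88 only Uox passed for that contrast (1.14%, beside 3.92% of all features). For the dye component, the other reading of the arrays, 80 of the 94 passed (41 positive, 39 negative), beside 86.5% of all features. The lists did not take in every related gene on the array, and Cks1b, given below, is among those left out. In nucleotide synthesis and salvage, 2 of 14 measured genes passed, Dtymk and Guk1 themselves, both negative, with a list median of -0.012 beside 0.0042 over all features. The nucleoside diphosphate kinases, which add the third phosphate after Dtymk and Guk1, stood at 0.12 ± 0.049 for Nme1, 0.096 ± 0.040 for Nme2, 0.012 ± 0.047 for Nme3 and -0.010 ± 0.054 for Nme4, none past the threshold. Deoxycytidine kinase Dck, a salvage enzyme, stood at -0.090 ± 0.043, deoxyguanosine kinase Dguok at -0.012 ± 0.039, and the purine salvage enzyme Hprt1 at -0.011 ± 0.039. The nucleoside transporter Slc28a2 came nearest to the threshold, at -0.15 ± 0.039 (limma adjusted p = 0.0891).

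In nucleotide breakdown 2 genes were measured. Uox, urate oxidase of liver peroxisomes, passed at -0.26 ± 0.040 (limma adjusted p = 0.0087), with 0.24, -0.81, 0.31 and -0.77 on arrays 1 to 4. It thus split by dye in the way Dtymk did. Pnp, purine nucleoside phosphorylase, stood at -0.12 ± 0.053 and did not pass.

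Of 9 ribosomal proteins only the member Rpl6 passed, beside 3.92% of all features, and the list median was -0.0081. The other members lay on both sides, from Rpl3 at -0.072 ± 0.040 to Rpl35a at 0.084 ± 0.040. Rpl4, a neighbour in function with almost the dye component of Rpl6 (both 0.49), had a contrast of 0.082 ± 0.039, on the opposite side. None of 8 features in the translation factor list passed, with the kinase Eef2k largest at 0.10 ± 0.041. That list, drawn by name, also took the kinase Eif2ak1 and the pseudogene Eif5-ps6.

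Among 24 genes of the cell cycle list none passed, beside 3.92% of all features, on a median of 0.010. Cks1b, a Cdk-binding subunit that the list left out, did pass on the negative side, at -0.20 ± 0.040 (limma adjusted p = 0.0275). Its dye component was 0.59, in the class above 0.25 that held 38 of the 46 features that passed. The related Cks2, also left out, stood at -0.0068 ± 0.052 and did not pass. Cdc37, a kinase co-chaperone, was the largest at 0.15 ± 0.049, followed by Ccnd1 at 0.13. The D-type cyclins Ccnd2 (-0.047 ± 0.042) and Ccnd3 (0.039 ± 0.045) were within 0.07 of the median gene spot in the mean of the arrays. So were the replication clamp Pcna (-0.067 ± 0.043), the helicase subunit Mcm4 (0.052 ± 0.041), Top2a (-0.028 ± 0.040) and Ccnb1 (0.0034 ± 0.040). The dye components of Pcna, Mcm4, Top2a and Ccnb1 were -0.64, -0.30, -0.77 and -0.74. These genes thus lie among the 431 features below -0.25, of which only 2 passed. Of 2 measured genes in the Myc network list, neither passed. The partner Max was not analysed here, and Bin1, a Myc-interacting protein, stood at 0.0042 ± 0.040.

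In the list of textbook Myc targets 1 of 12 passed, the member Ptma, beside 3.92% of all features, and the median was 0.033. Dtymk, whose promoter window holds the E-box, and Ptma, whose window does not, lay on opposite sides. The windows of Guk1 and Rpl6 also lack the E-box, and both genes were negative like Dtymk. These windows hold only bases before the start site, so an E-box elsewhere in or near these genes would not be seen. Whether Myc binding has a part in the members' values was not tested. The nucleolar protein Npm1 was at -0.12 ± 0.041, ornithine decarboxylase Odc1 at -0.018 ± 0.045, lactate dehydrogenase Ldha at 0.058 ± 0.043 and Apex1 at 0.0085 ± 0.044. Ptma was also the 1 member of 8 to pass in the chromatin list, whose median was -0.049. Hmgn3, a nucleosome-binding protein, was next at 0.19 ± 0.043 (limma adjusted p = 0.0506), and the histone genes Hist1h2bo (-0.10 ± 0.041) and Hist1h2bg (-0.062 ± 0.042) lay on the other side. None of 21 immediate early and growth factor genes passed. Nearest to the threshold were Stat3 at -0.17 ± 0.039 (limma adjusted p = 0.0544) and Igf1 at -0.15 ± 0.041 (adjusted p = 0.0905). Fos stood at 0.058 ± 0.052, Egr1 at -0.020 ± 0.074 and Hbegf, the largest, at 0.17 ± 0.11, where array 4 read 1.41 and array 2 0.59. On the deposited scale, where 90% of all features passed on the negative side, Ptma was the only positive gene of the 94.

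**Figure D4:**
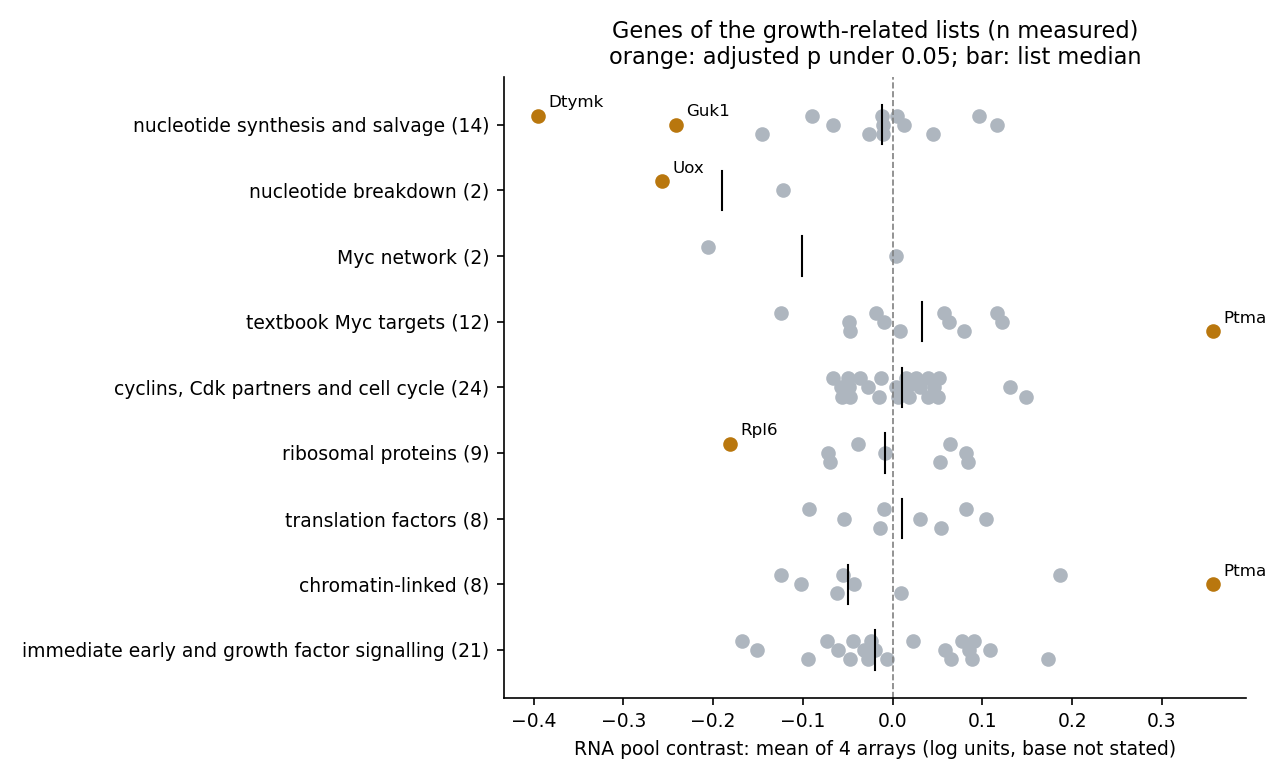
RNA pool contrast (horizontal axis, mean of 4 arrays in log units of unstated base) of each measured gene in 9 growth-related lists, with the number measured in brackets and the list median as a black bar. Orange genes passed an adjusted p of 0.05 in limma. Dtymk, Guk1, Uox, Rpl6 and Ptma passed, and the list medians of 9 or more genes lie between -0.020 and 0.033.

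By Euclidean distance over the 4 centred arrays, the named genes nearest to Dtymk were Car3 (distance 0.207), a carbonic anhydrase abundant in liver, and the autophagy receptor Sqstm1 (0.278). Nearest to Rpl6 were Igf1 (0.0808), the growth factor secreted by hepatocytes, and Stat3 (0.111). Ptma was nearest to Gpx2 (0.258) and Nqo1 (0.365), both antioxidant enzymes, at contrasts of 0.33 and 0.20. Guk1 was nearest to Cyp8b1 (0.279) and Pik3c3 (0.298). Myc was nearest to Ctcf (0.181) and Pi4kb (0.202), and Ccnd1 to Rab1a (0.118) and Fosl2 (0.138). The dye component weighs most in these distances: its SD over gene spots was 0.482, against 0.102 for the RNA pool contrast.

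Markers of other liver cells gave no value of the size seen for Dtymk or Ptma. Of 11 measured markers of bile duct, myeloid and lymphoid, endothelial and stellate, and platelet cells none passed, beside 3.92% of all features. Their contrasts ran from -0.12 (Fcgr2b) to 0.0098 (Pf4). Only 2 of them mark bile duct, Cd24 (-0.065) and Spp1 (-0.010). Both had dye components below -0.25, at -0.68 and -0.75, a class in which only 2 of 431 features passed. Others, such as Tek and Pf4, also lay in that class, while Vim and Fcgr2b did not. Of 8 measured hepatocyte markers 3 passed, beside 3.92% of all features (1.62% positive), each on the positive side after centring: Cyp1a2 at 0.62, Ttr at 0.23 and Tf at 0.19. On the deposited scale 6 of the 8 were negative. The median gene spot lay at -0.21 on that scale, and 90% of all features passed on the negative side. There Cyp1a2 stood at 0.40, while Ttr at 0.011 (limma adjusted p = 0.779) and Tf at -0.028 (adjusted p = 0.462) did not pass. A ratio gives no level, so whether the tissue carries its markers could not be read from these values, and their part in the members' values was not tested.

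Across 13 alternative settings under the same reading of the arrays, Dtymk and Ptma each passed in 12, all but the fit without a dye term. Guk1 passed in 10 and Rpl6 in 6. Myc passed in 5 of 14, where each spot counts as a setting. Ccnd1 passed in 0. The side of each member stayed the same in all of these, except that Ccnd1 turned negative on the deposited scale. In the fit without a dye term 0 of 1174 features passed in limma, 5 had an unadjusted p under 0.05, and the SE of Dtymk was 0.257.

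**Figure D5:**
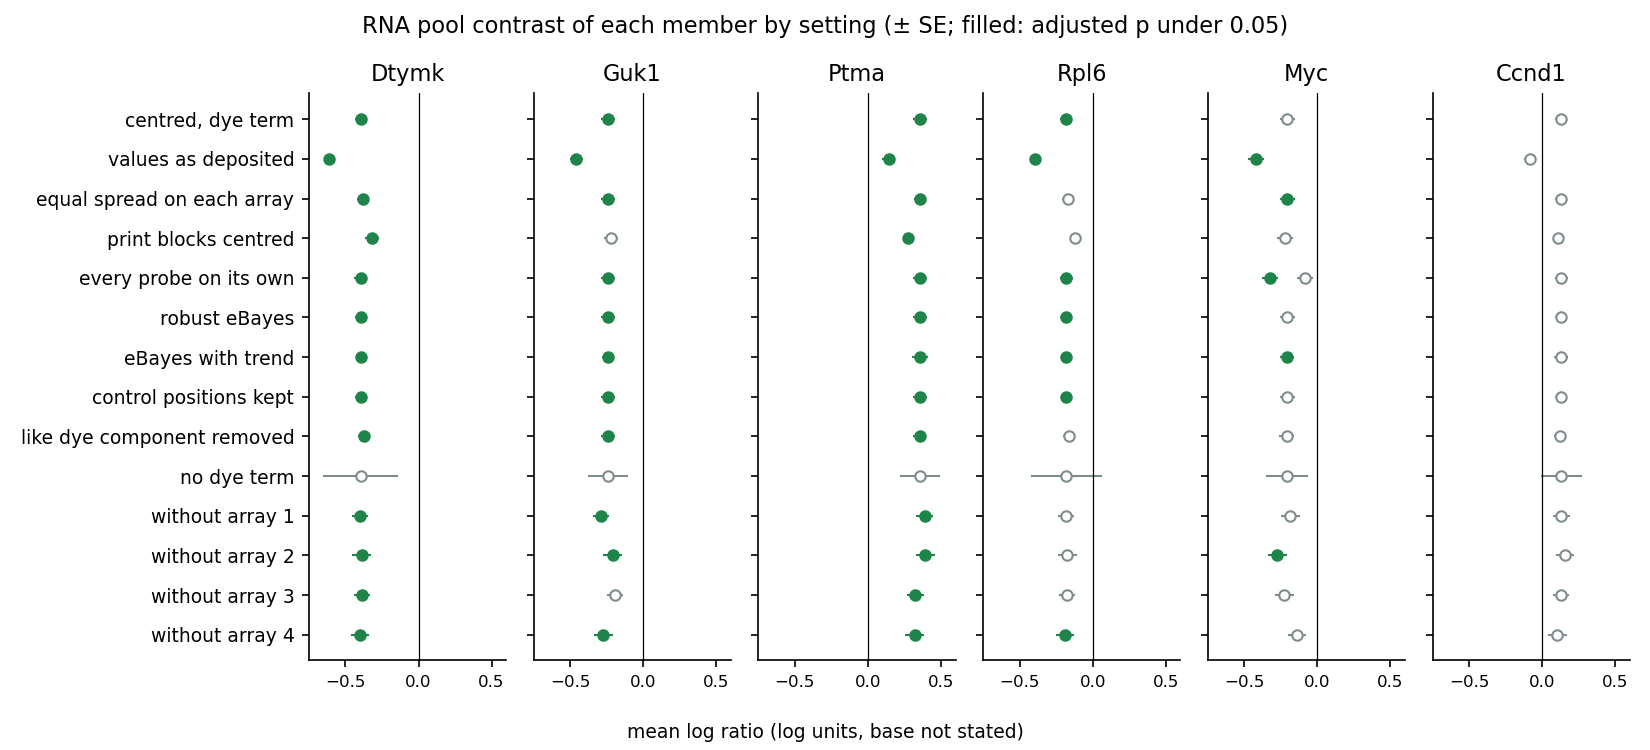
RNA pool contrast ± SE of each member (horizontal axes, log units of unstated base) under each setting (rows). Filled green points passed an adjusted p of 0.05 in limma and open points did not. Dtymk and Ptma pass in each setting shown except the fit without a dye term, and Ccnd1 passes in none.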

How the data were processed

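Two-colour cDNA arrays compared pooled liver RNA of ANIT-treated and oil-treated rats on 4 arrays. The deposited values are the authors' log ratios, 1 per spot and array, with 0 missing. Scanner, background correction, normalization, base and direction were not given in the sources used here, and signal over background is unknown. The number of arrays limits the precision.

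Spots form 16 blocks of 121. At 18 positions per block no spot was annotated in any block; these 288 spots were taken as control positions from their layout and left out. Of the other 1648, 1432 had 1 gene symbol, 19 several and 197 none; 1429 matched the rat gene table (GRCr8) by Entrez identifier and 0 symbols were updated. Spots of a symbol were averaged, giving 1174 features. Each array was centred on its gene-spot median.

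limma 3.58.1 (R 4.3.3; lmFit, eBayes) fitted a mean and a dye term per feature, with 2 residual degrees of freedom, two-sided, Benjamini-Hochberg over all features, threshold 0.05. The fit was tested on simulated data. Figures used matplotlib 3.10.9.

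Members and lists were chosen with earlier results of these data known. Named were the 6 members, up to 4 passing genes of each list or else its largest, and the 2 nearest genes of each member; other list genes were named after their values were seen. Alternatives were scaling, print blocks, dye term, reading of the ratio, single spots, eBayes options, control positions and each array left out; removal of a running median over 201 spots of like dye component was added after seeing the data.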

Additional observations from a re-analysis of the deposited data

How the results depend on the processing

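The count of 46 features past the threshold moved to 1061 (4 positive) with values as deposited, 0 in limma with no dye term (5 at an unadjusted p under 0.05), 87 with every probe on its own, 101 with control positions kept and 1015 with the sign turned on arrays with ANIT in Cy3, where the tested term is the dye component. The 5 genes of the growth lists that passed became 88, 0, 10, 7 and 80 under those settings, and 3 with print blocks centred. Leaving out 1 array gave 28 (without array 3) to 86 features (without array 2), and 3 to 10 list genes, with the same arrays at the ends. The 1015 features past the threshold for the dye component stayed within 1.5 times that count in each setting run, at 950 as deposited and between 981 and 1000 with 1 array left out. With the sign turned, Dtymk was at 0.53, Rpl6 at 0.49 and Ccnd1 at -0.13, each on the other side. As deposited, Ccnd1 was at -0.085. Of 85 member values under alternatives, 62 kept their direction and their side of the threshold, 14 no longer passed, 5 newly passed and 4 changed side. With like dye component removed, Rpl6 was at -0.16 (limma adjusted p = 0.0615), and with equal spread at -0.17 (adjusted p = 0.0519). The causes of these moves were not tested. With 1 array left out, the lone array of its orientation is assumed to vary like the others, and without array 2 or 4 every member had the same SE (0.063), so the counts there also carry that variance model. No paired analysis was possible because the arrays form 1 group whose numbers recur in no other group and no label pairs a Cy5 with a Cy3 array; each ratio already compares both pools within an array.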
